A study of Mus musculus with 6 samples.

Results

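Catalase, the superoxide dismutases and the glutathione peroxidases form the front line of enzymes that dispose of superoxide and peroxides. The 10 genes described here, Cat, Sod1, Sod2, Sod3, Gpx1, Gpx2, Gpx3, Gpx4, Gpx7 and Gpx8, were chosen by name through the gene symbol of the array annotation. They are among 22180 genes named by probe sets with 1 symbol. Each of the 10 had exactly 1 such probe set, so none was lost and no choice between such probe sets arose. Probe sets with several symbols were not used to name genes. Liver RNA came from 12-week-old male mice of the FAH5981SB line on the C57Bl/6J background. All carry a point mutation in Fah that leaves the truncated fumarylacetoacetate hydrolase unstable, a model of hereditary tyrosinemia type 1. In the withdrawal group (3 arrays) NTBC (nitisinone), a drug that blocks tyrosine breakdown upstream of Fah, was withheld for 7 days from the age of 11 weeks. In the continuous NTBC group (3 arrays) the mice went on drinking it at 8 mg/l. Both groups ate a chow low in tyrosine and phenylalanine, and the labels list 3% dextrose in the water of all mice. No wild-type liver was analysed here, so both groups lack Fah function.

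Superoxide dismutases turn superoxide into hydrogen peroxide, each in its own compartment: Sod1 in the cytosol, Sod2 in mitochondria and Sod3 outside the cell. Catalase breaks down hydrogen peroxide in peroxisomes, which are abundant in hepatocytes. Glutathione peroxidases reduce peroxides at the expense of glutathione, and those encoded by Gpx1, Gpx2, Gpx3 and Gpx4 carry selenocysteine at the active site, while Gpx7 and Gpx8 encode endoplasmic reticulum proteins with cysteine there. When Fah is missing and NTBC is withheld, reactive tyrosine metabolites build up in hepatocytes.

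Values below are log2 normalized signals, and changes are withdrawal minus continuous NTBC from a limma fit across all 34472 probe sets, with Benjamini-Hochberg adjustment over all of them and a threshold of 0.05. In that fit 9.40% of probe sets passed, 6.21% higher and 3.20% lower, which is 2139 higher and 1102 lower (2393 and 708 with each array centred on its median). Replicates are labelled biological, with no word on which animals they came from, so p-values speak only of the variation among these 6 arrays, which may be in part technical. Array medians lay between 5.21 and 5.39 in the withdrawal group and between 5.29 and 5.44 in the continuous group. Lower quartiles were 4.03 to 4.16 after withdrawal and 4.11 to 4.26 on continuous NTBC. Upper quartiles were 6.69 to 6.81 after withdrawal and 6.65 to 6.73 on continuous NTBC. The labels held for the tissue, with Alb at 14.12 ± 0.01 after withdrawal and 14.17 ± 0.06 on continuous NTBC (SD, n = 3 each). Fah, altered by a point mutation in all mice, had a change of -0.15 (SE 0.22, limma adjusted p = 0.718) and gives no check of the groups. Hpd, the enzyme that NTBC inhibits, had 12.02 ± 0.06 after withdrawal and 12.66 ± 0.14 on continuous NTBC (adjusted p = 0.021).

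After NTBC withdrawal Gpx4 rose close to 2-fold, and it was the single member of the 10 that passed the test. Sod1, Sod2, Cat and Gpx3 had changes between 0.29 and 0.41, with every withdrawal array above every continuous array, and did not pass. Sod3 had a change of 0.33 with overlapping groups. Gpx1, the abundant cytosolic glutathione peroxidase, and Gpx7 had changes of 0.09 and 0.00. Gpx2 and Gpx8 had negative changes that did not pass. In counts, 1 of 10 members passed as higher and 0 as lower by limma. At an unadjusted p under 0.05 there were 4 higher and 1 lower, where 12.4% of all probe sets were higher and 11.2% lower. At the adjusted threshold, the count of 1 in 10 is near the 9.40% of all probe sets that passed, or 6.21% as higher. The median change of the 10 was 0.31, against -0.08 over all probe sets, and no member reached a 2-fold change. The comparison of medians was not matched for signal level. Cat, Sod1, Sod2, Gpx1 and Gpx4 lay above the upper quartile on all 6 arrays, and Gpx2 under the lower quartile on 5.

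**Figure D1:**
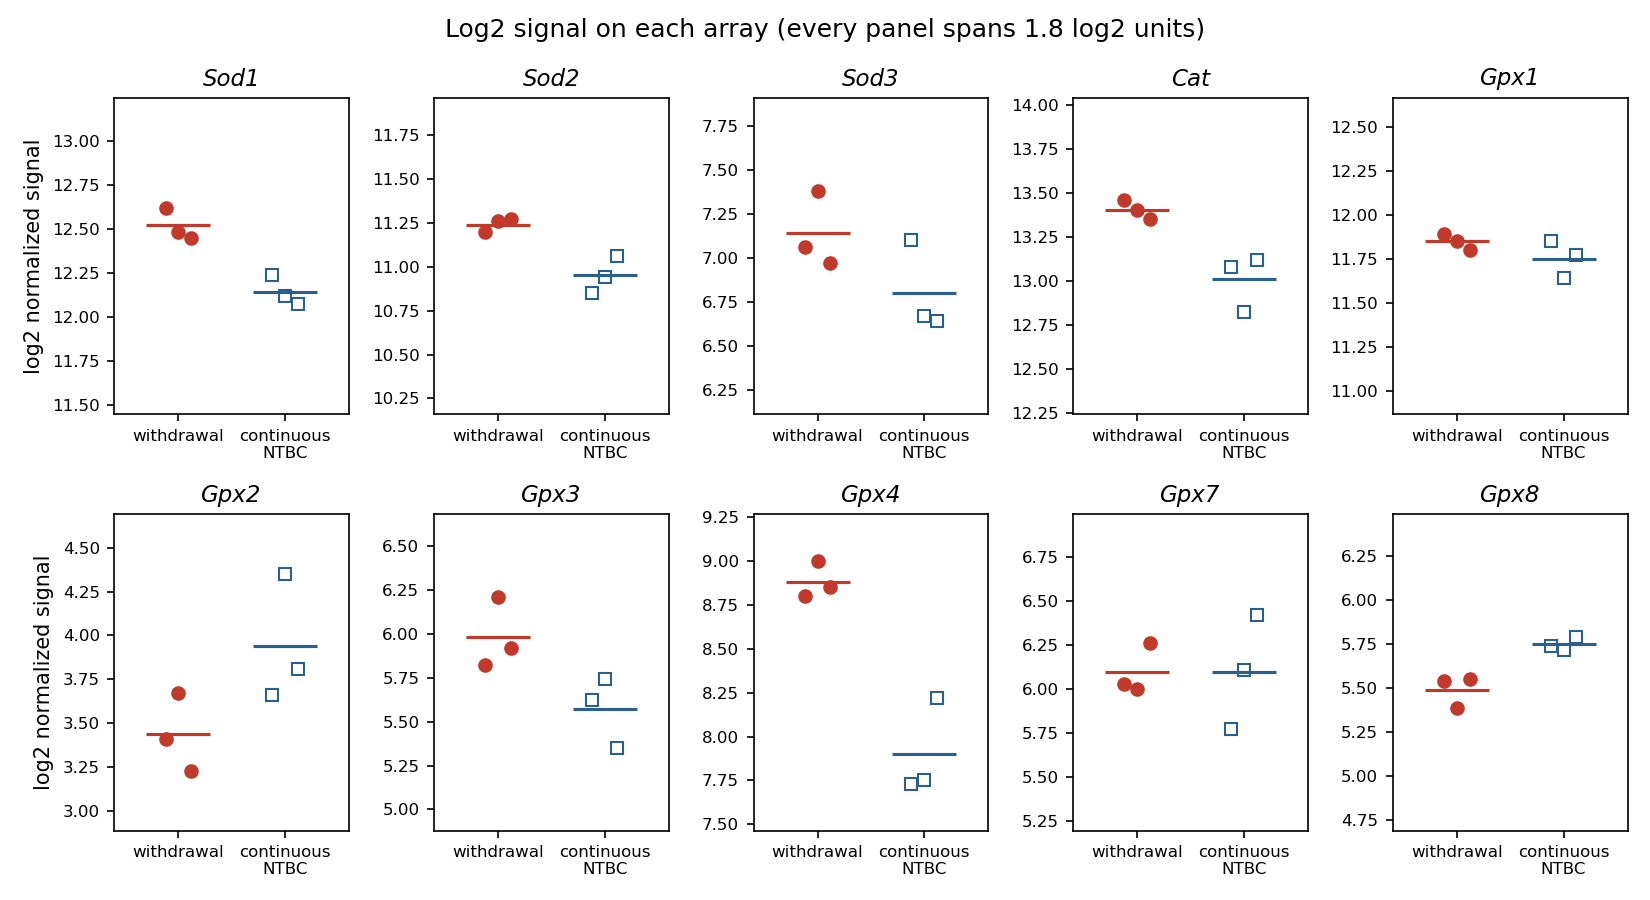
Log2 normalized signal of the 10 genes on each array, with withdrawal arrays as filled red circles, continuous NTBC arrays as open blue squares and group means as horizontal bars. Each panel has its own vertical position but the same span, so distances can be compared between panels. Gpx4 shows the widest gap between the groups, with 8.80 to 9.0 after withdrawal against 7.73 to 8.22 on continuous NTBC.

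Gpx4 encodes the peroxidase that reduces lipid hydroperoxides within membranes and thereby holds back ferroptosis, an iron-dependent form of cell death. Its log2 signals were 8.80, 9.0 and 8.85 on withdrawal replicates 1 to 3, and 7.73, 7.75 and 8.22 on continuous replicates 1 to 3. The groups did not overlap, with a gap of 0.58 between the lowest withdrawal array and the highest continuous one. Continuous replicate 3 stood above the other two of its group. The means were 8.88 ± 0.10 after withdrawal and 7.90 ± 0.28 on continuous NTBC (SD, n = 3 each). The change was 0.98 (SE 0.17, 95% interval 0.60 to 1.37, limma adjusted p = 0.00574), a 1.98-fold rise with an interval of 1.52 to 2.58. In the deposited linear intensities these were 446, 512 and 461 after withdrawal, against 212, 215 and 298 on continuous NTBC. The size of this change was larger than that of 96.2% of all probe sets. Gpx4 passed with each array left out in turn, with adjusted p between 0.00337 and 0.0316. The mouse genome holds processed copies of this gene, Gpx4-ps1 and Gpx4-ps2, and whether their sequence binds to the Gpx4 probes was not tested.

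The promoter of Gpx4 is shown because this gene alone passed the test, and that of Sod1 because its window, of those of the 9 members searched, was the one that held the core of the antioxidant response element, the sequence bound by the stress-activated transcription factor NRF2. Both are the 250 bases before a RefSeq transcript start on the plus strand of GRCm38.p6. That of Gpx4 is chr10:80053315-80053564, before the second by position of the 4 starts listed, and that of Sod1 is chr16:90220512-90220761. Capitals mark the match to the motif.
Gpx4: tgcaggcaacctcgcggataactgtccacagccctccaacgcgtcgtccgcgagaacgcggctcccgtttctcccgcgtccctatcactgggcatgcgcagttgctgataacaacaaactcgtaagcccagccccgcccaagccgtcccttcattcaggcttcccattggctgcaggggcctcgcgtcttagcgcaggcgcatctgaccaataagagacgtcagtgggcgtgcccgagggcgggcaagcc
Sod1: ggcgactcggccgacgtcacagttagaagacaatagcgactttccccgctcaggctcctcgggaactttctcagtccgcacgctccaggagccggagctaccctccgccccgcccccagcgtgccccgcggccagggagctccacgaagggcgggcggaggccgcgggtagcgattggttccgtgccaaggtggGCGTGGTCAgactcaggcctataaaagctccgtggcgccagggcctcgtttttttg

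The motif searched was TGACNNNGC and its reverse complement GCNNNGTCA, on both strands of windows from 250 bases before to 50 bases after each start. The match in Sod1 lay on the minus strand, 56 to 48 bases before the start. Of 9 members with a window, Sod1 was the 1 with a match, and none of the 4 windows of Gpx4 held these letters. NRF2 target genes were searched only if they passed as higher after withdrawal. Of 12 such genes with a window, 6 had a match in at least 1 window (Srxn1, Txnrd1, Gclm, Abcc4, Pgd and Ugdh). The others were Nqo1, Slc7a11, Cbr3, Ephx1, Gstm1 and Gstm3. Over all 27025 genes with a window, 14.0% had a match. Counted by window, 1 of 12 windows of the members and 7 of 17 of the NRF2 targets held the motif, against 12.4% of all 32851 windows. The NRF2 genes were listed as known targets, so their share with a match is no test of NRF2 control. A match describes letters in a window and is not a binding site. Sequence outside the windows was not searched, so a window without a match does not mean a gene without a site.

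Among the superoxide dismutases, Sod1, the copper-zinc enzyme of the cytosol, had log2 signals of 12.62, 12.48 and 12.45 on withdrawal replicates 1 to 3, and 12.24, 12.12 and 12.07 on continuous replicates 1 to 3. The groups did not overlap, with a gap of 0.21. The change was 0.37 (SE 0.14, 95% interval 0.06 to 0.69) and did not pass (limma adjusted p = 0.142). Across all probe sets 27.6% had groups that did not overlap, 13.9% with withdrawal higher and 13.7% with withdrawal lower. Of the 10 members, 6 were of this kind, 5 of them with withdrawal higher.

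Sod2, the manganese enzyme of mitochondria, read 11.20, 11.26 and 11.27 on the withdrawal arrays and 10.85, 10.94 and 11.06 on the continuous arrays. Here too the groups did not overlap, by 0.14. The change of 0.29 (SE 0.14, 95% interval -0.02 to 0.61, limma adjusted p = 0.242) did not pass. Sod3, the secreted enzyme, read 7.06, 7.38 and 6.97 after withdrawal and 7.10, 6.67 and 6.64 on continuous NTBC. Continuous replicate 1 lay above 2 of the 3 withdrawal arrays. Its change of 0.33 (SE 0.18, 95% interval -0.07 to 0.74, adjusted p = 0.304) did not pass.

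Genes that handle the metals of these enzymes went both ways. Of 9 measured genes of copper and manganese handling, 2 passed as higher and 2 as lower, with a median of 0.06. Ccs, the chaperone that loads copper into Sod1, fell to 8.59 ± 0.15 after withdrawal, against 9.77 ± 0.26 on continuous NTBC (change -1.18, SE 0.17, limma adjusted p = 0.00213). Atox1, which carries copper to the copper pumps of the secretory pathway, rose by 0.88 (SE 0.17, adjusted p = 0.0103), and Atp7a, one of those pumps, by 0.60 (adjusted p = 0.0483). Slc39a14, a hepatic importer of manganese, zinc and iron, fell by 0.59 (adjusted p = 0.04). Atp7a was named after its value was seen.

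Cat, the peroxisomal catalase, read 13.46, 13.40 and 13.35 on withdrawal replicates 1 to 3 and 13.08, 12.82 and 13.12 on continuous replicates 1 to 3. All 3 withdrawal arrays were above the continuous ones, with a gap of 0.23. The change was 0.40 (SE 0.15), or 1.32-fold with a 95% interval of 1.05 to 1.65, and did not pass (limma adjusted p = 0.136). Cat and Sod1 passed when the prior variance was allowed to depend on signal level (limma's trend and robust options), with adjusted p = 0.0262 and 0.0317. The changes themselves were the same there, and both SEs were 0.10.

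Around catalase in the peroxisome, the oxidases that release hydrogen peroxide had a median change of -0.39. Of 8 measured, 2 passed, each lower. These were Uox, urate oxidase, which fell by 1.43 (SE 0.19, limma adjusted p = 0.00119), and Acox3, an acyl-CoA oxidase, which fell by 0.81 (adjusted p = 0.0154).

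**Figure D2:**
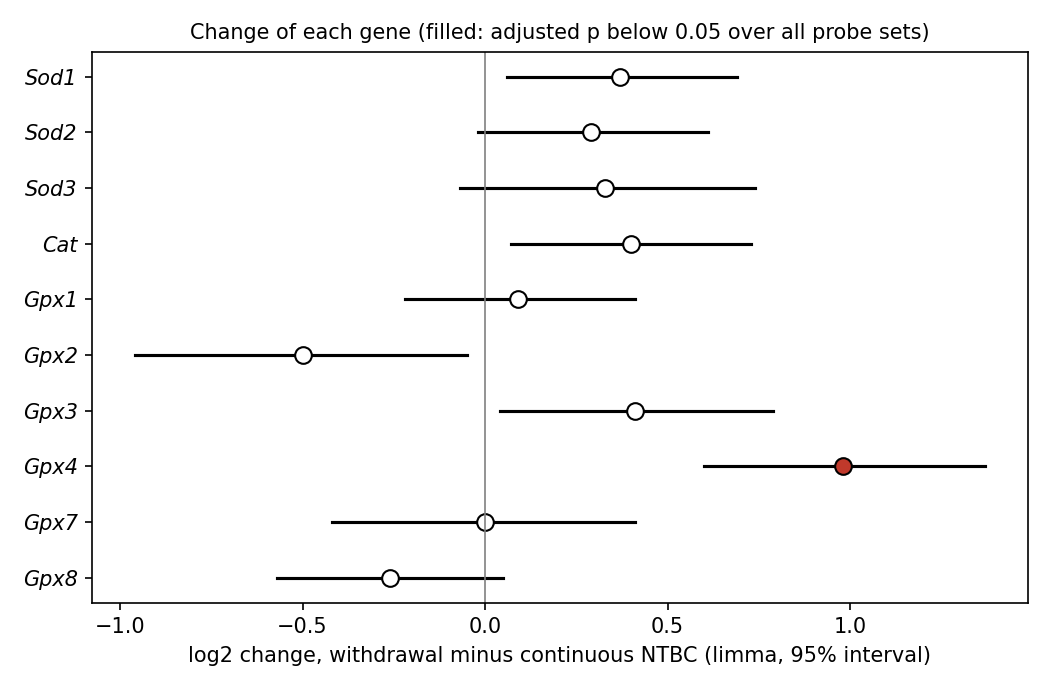
Log2 change of each gene, withdrawal minus continuous NTBC, with its 95% interval from the limma fit, and a filled point where the adjusted p was below 0.05. Gpx4 at 0.98 is the filled point, while the intervals of Sod1, Cat and Gpx3 lie just above 0 and that of Gpx2 lies just below it.

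Gpx1, the main glutathione peroxidase of the hepatocyte cytosol, read 11.89, 11.85 and 11.80 on the withdrawal arrays and 11.85, 11.64 and 11.77 on the continuous arrays. The groups overlapped. The change was 0.09 (SE 0.14, limma adjusted p = 0.734), and its 95% interval of 0.858-fold to 1.33-fold leaves out a change as large as the 1.52-fold at the low end of the Gpx4 interval. The difference between the changes of Gpx1 and Gpx4 was itself not tested.

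Gpx2, a peroxidase best known from the gut epithelium and a known NRF2 target, read 3.41, 3.67 and 3.23 after withdrawal and 3.66, 4.35 and 3.81 on continuous NTBC. Withdrawal replicate 2 and continuous replicate 1 met at the border, so the groups overlapped by 0.01. On 5 of the 6 arrays the signal was under the lower quartile of that array. The change was -0.50 (SE 0.20, 95% interval -0.96 to -0.05, limma adjusted p = 0.167), and it was -0.15 when signals under that quartile were raised to it. Gpx2-ps1, a transcribed pseudogene with a probe set of its own, had a change of 0.05 (SE 0.28, adjusted p = 0.936). For intestinal epithelium markers the median change was -0.28, and 0 of 5 passed the limma threshold, with 2 lower at an unadjusted p under 0.05. Their summed intensity was 768 to 1014 after withdrawal and 1149 to 1297 on continuous NTBC. Fabp2 alone made up 74.5% to 82.1% of that sum after withdrawal and 80.3% to 82.4% on continuous NTBC, and the other 4 summed to 178 to 196 after withdrawal and 225 to 229 on continuous NTBC. Of 4 measured pancreatic acinar markers 0 passed. Their summed intensity was 213 to 290 after withdrawal and 234 to 768 on continuous NTBC. Each of these 4 read highest on continuous replicate 2, as did Gpx2, and without that array the Gpx2 change was -0.30. The part of intestinal or acinar cells in the Gpx2 values was not tested.

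Gpx3 encodes the peroxidase secreted into plasma. It read 5.82, 6.21 and 5.92 on the withdrawal arrays and 5.62, 5.74 and 5.35 on the continuous arrays. The groups were apart by 0.08. The change of 0.41 (SE 0.17, 95% interval 0.04 to 0.79, limma adjusted p = 0.172) did not pass.

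The endoplasmic reticulum peroxidases did not pass either. Gpx7, which helps oxidative protein folding, read 6.03, 6.00 and 6.26 after withdrawal and 5.77, 6.11 and 6.42 on continuous NTBC, so the continuous arrays spanned both sides of the withdrawal arrays. Its 95% interval was -0.42 to 0.41. Gpx8, a membrane-anchored relative, read 5.54, 5.39 and 5.55 after withdrawal and 5.74, 5.72 and 5.79 on continuous NTBC. It was the single member with all withdrawal arrays below the continuous ones, by 0.17, and its change of -0.26 (SE 0.14, limma adjusted p = 0.302) did not pass. Of the family outside the 10 genes, Gpx5 and Gpx6 had changes of -0.10 and 0.11, and neither passed (adjusted p = 0.752 and 0.713).

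RNA of whole liver cannot tell fewer cells of a type from less RNA per cell. Sod3, Gpx3, Gpx7 and Gpx8 are also made outside hepatocytes, so markers of other liver cells are given beside them. Of 10 stellate cell or fibroblast markers 0 passed the limma threshold (2 higher at an unadjusted p under 0.05), with summed intensities of 1584 to 1941 after withdrawal and 1410 to 1761 on continuous NTBC. Of 8 sinusoidal endothelial markers 2 passed as higher, Clec4g (0.81) and Lyve1 (1.07), and 5 were higher at an unadjusted p under 0.05. Their median change was 0.39 and their lowest 0.02, with summed intensities of 2360 to 2407 after withdrawal and 1553 to 1846 on continuous NTBC. Of 9 Kupffer cell or macrophage markers 0 passed (1 higher at an unadjusted p under 0.05), with sums of 1192 to 1759 after withdrawal and 1245 to 1524 on continuous NTBC. Of 5 vascular smooth muscle markers 0 passed (1 lower at an unadjusted p under 0.05), with a median change of -0.25. Of 5 measured cholangiocyte markers 0 passed, with a median of -0.21. Of 8 neutrophil markers 1 passed as lower, with a median of -0.11. Hepatocyte markers summed to 63382 to 69402 after withdrawal and 73100 to 79332 on continuous NTBC, with a median change of -0.12. Of these 8, Tat (-1.23) and Cps1 (-1.08) passed as lower, and the other 6 had changes from -0.23 to 0.13. The part of these markers in the values of the 10 genes was not tested.

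Genes that supply the glutathione peroxidases were compared next. Of 5 measured genes of glutathione synthesis and reduction, 5 passed as higher, with a median change of 2.07. Gsr, the reductase that returns glutathione to its working form, rose 4.72-fold, with 11.74 ± 0.09 after withdrawal and 9.50 ± 0.28 on continuous NTBC (limma adjusted p = 4.37e-05). Gclc, the rate-limiting enzyme of glutathione synthesis, rose 4.19-fold and Pgd, which supplies NADPH, 8.67-fold.

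The parallel system of peroxiredoxins and thioredoxins had 3 of 6 measured genes past the threshold, each higher. Srxn1, which repairs overoxidised peroxiredoxins, rose 8.02-fold (limma adjusted p = 1.3e-05), the mitochondrial peroxiredoxin Prdx3 2.47-fold and the cytosolic thioredoxin Txn1 2.10-fold. Prdx2 (0.06), Prdx4 (-0.20) and Txn2 (0.38) did not pass and were named after their values were seen. Prdx1, Prdx5 and Prdx6 were listed but not measured. Prdx3 removes hydrogen peroxide in the compartment where Sod2, with a change of 0.29, produces it.

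Of 14 measured NRF2 targets, 14 passed as higher, with changes from 1.30 to 6.79 and a median of 3.06. Nqo1, a quinone reductase, rose 13.7-fold. The dim signal of Gpx2 allows no comparison with it. The 3 with the smallest p-values were Slc7a11, the cystine importer, Abcc4, an efflux pump, and Pgd. This list was chosen with earlier results of the same arrays known, and it overlaps the glutathione and thioredoxin genes above.

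**Figure D3:**
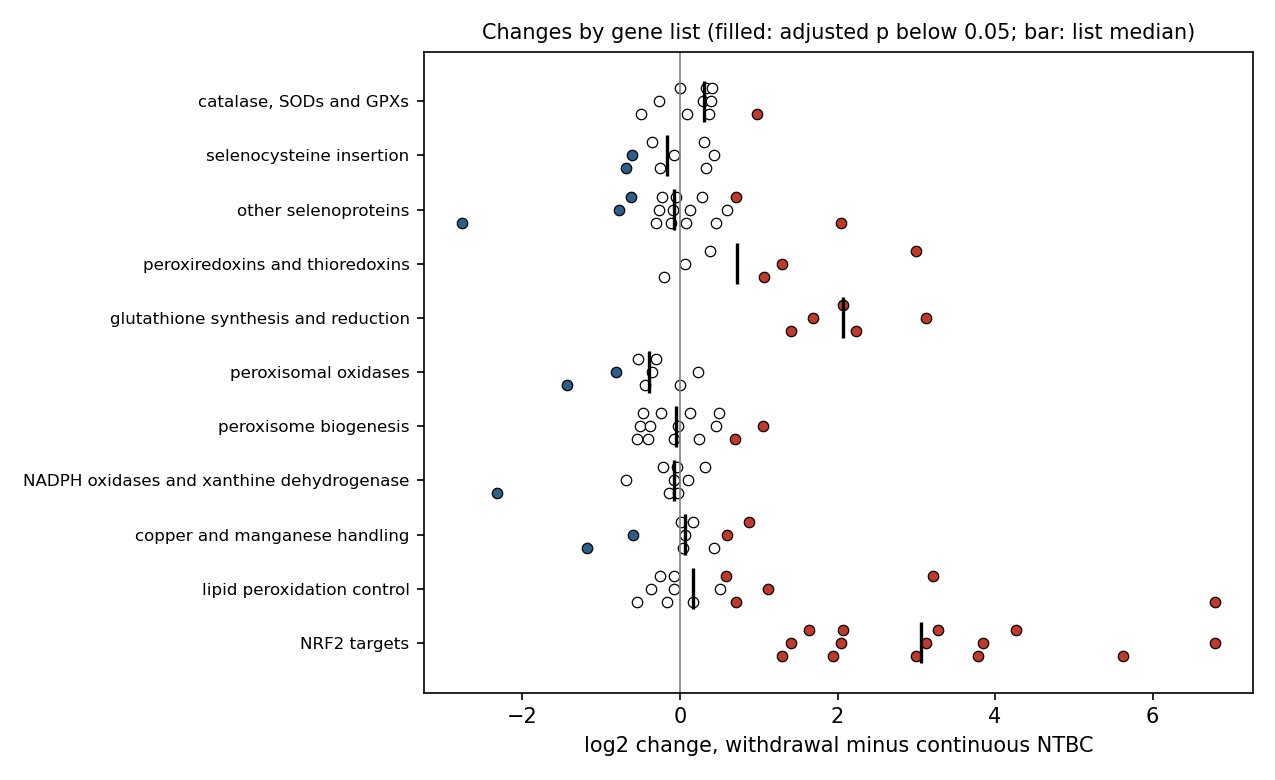
Log2 change, withdrawal minus continuous NTBC, of every measured gene in the 10 enzymes (top row) and in 10 related lists, with filled points for genes past the threshold and a black bar at each list's median. The top row has a median of 0.31 and 1 filled point, while the lists of glutathione synthesis and reduction and of NRF2 targets hold filled points only, with medians of 2.07 and 3.06.

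Selenocysteine is needed for the proteins of Gpx1, Gpx2, Gpx3 and Gpx4. Of 8 genes that help to make, insert or recycle it, 2 passed the threshold, each lower. Changes ran from -0.68 to 0.43 with a median of -0.16, and 1 was higher and 2 lower at an unadjusted p under 0.05. Scly, which recovers selenium from selenocysteine, fell by 0.68 (SE 0.16, limma adjusted p = 0.0251), and Sephs2, which makes the selenium donor, fell by 0.61 (SE 0.16, adjusted p = 0.0367). Secisbp2, which reads the insertion signal in selenoprotein mRNAs, had a change of -0.25 (adjusted p = 0.423). Of 16 other selenoprotein genes measured, 2 passed as higher and 3 as lower, with a median of -0.07. Txnrd1, the cytosolic thioredoxin reductase, rose 4.11-fold, while its mitochondrial counterpart Txnrd2 fell by 0.78 and Dio1, the hepatic thyroid hormone deiodinase, was 6.81-fold lower. Selenoi (0.71) and Msrb1 (-0.62), named after their values were seen, were the remaining pair. Selenop, the liver-made selenium carrier of plasma, had a change of 0.08 (adjusted p = 0.78).

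Among genes with mixed roles around lipid peroxidation, where Gpx4 acts, 5 of 13 measured passed, each higher, with a median of 0.16. At an unadjusted p under 0.05 there were 6 higher and 1 lower. Slc7a11, which feeds glutathione synthesis, rose by 6.79, with 2 of the 3 continuous arrays under the lower quartile of their array, and by 6.44 with those signals raised to that quartile. Tfrc, the transferrin receptor through which cells take up iron, rose 9.25-fold (limma adjusted p = 2.75e-05). Acsl4, which activates the polyunsaturated fatty acids that become peroxidised, rose 2.17-fold, with 10.10 ± 0.03 after withdrawal and 8.98 ± 0.28 on continuous NTBC (adjusted p = 0.00257). The other 2 that passed were Gch1 (0.71), of tetrahydrobiopterin synthesis, and Ncoa4 (0.58), the receptor for ferritin turnover, both named after their values were seen. The 8 that did not pass were Aifm2 (0.51), Dhodh (0.16), Lpcat3 (-0.07), Ptgs2 (-0.08), Alox15 (-0.17), Chac1 (-0.25), Alox5 (-0.37) and Alox12 (-0.54). These too were named after their values were seen.

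**Figure D4:**
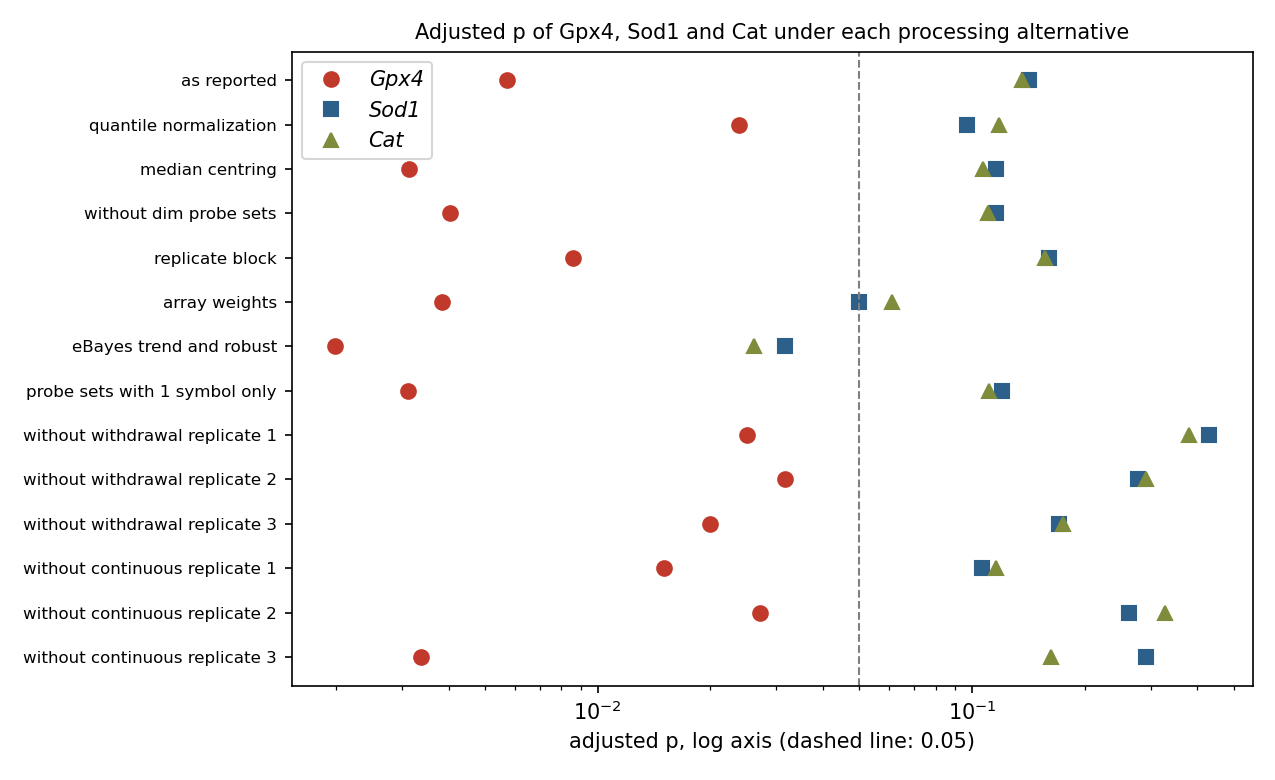
Adjusted p of Gpx4 (red circles), Sod1 (blue squares) and Cat (green triangles) on a log axis, in the fit as reported and in each of 13 alternatives, with the threshold of 0.05 as a dashed line. Gpx4 stays left of the line in every fit shown, Sod1 crosses it with array weights and with trend and robust, and Cat with trend and robust.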

How the data were processed

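Liver RNA on 6 whole-transcript Affymetrix arrays was used. The deposited table lists a linear, already normalized intensity for every probe set on every array. The authors used Transcriptome Analysis Console, per the submitters' processing notes. Its version, background correction, normalization and genome build are not given in the sources used here. The deposited intensities were turned to log2 values with no further normalization and modelled by limma 3.58.1 under R 4.3.3 (lmFit, eBayes with the default prior, two-sided, no filter on low signals, 10.2 total degrees of freedom). The fit was tested on simulated data. A gene was named only from a probe set with 1 symbol (23521 of 34472). The table carries no detection flags, so a low signal can compress a fold. The number of arrays limits the precision. Between 0.748% and 1.80% of values were identical in any pair of arrays. Promoter windows came from RefSeq (GRCm38.p6), and Sod3 was not among the genes with one. Members and lists were chosen with earlier results of these data known. From each list up to 3 genes with the smallest p-values among those past the threshold were named, and besides them Ccs, Gsr, Nqo1, Acsl4, Selenop, Secisbp2 and the markers Alb, Clec4g, Lyve1, Tat, Cps1 and Fabp2. The closing section names the alternatives tried.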

Additional observations from a re-analysis of the deposited data

How the results depend on the processing

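The rise of Gpx4 kept its direction and its side of the threshold in all 13 alternative fits, with changes of 0.80 (quantile normalization) to 1.14 and a highest adjusted p of 0.0316. The number of members that passed as higher, 1 as reported, was 2 with array weights (Sod1 added, adjusted p = 0.0498), 3 with eBayes trend and robust (Cat and Sod1 added) and 0 when a 2-fold change was also required. It was 1 with any single array left out, and 0 members passed as lower in any of these fits. Over all probe sets, array weights gave 3339 higher and 2249 lower, a required 2-fold change 748 and 430, and median centring, which adds 0.10 to every change, 708 lower; list medians within 0.10 below 0 change sign with it. With 1 array left out the counts ran from 935 to 2629 higher and from 519 to 1581 lower; they were 935 and 519 without withdrawal replicate 1, 1122 and 673 without withdrawal replicate 2, and 1327 higher without continuous replicate 2. Gpx7, with a change of 0.00, took the opposite sign at 0.10 with median centring and ran from -0.17 to 0.16 with 1 array left out. The labels do not say that equal replicate numbers mark a shared litter, batch or day, so the numbers were not taken as pairs. Deviations of same-numbered arrays from their group means correlated at 0.16, -0.125 and 0.217 for numbers 1 to 3. With the replicate block 1 member passed (Gpx4, limma adjusted p = 0.0086), with 2130 probe sets higher and 1168 lower. Quartile-floored signals moved Gpx2 to -0.15, and Gpx2 was itself left out with the dim probe sets. The table gives no background level, so how far dim signals such as that of Gpx2 stand above it is unknown.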

Other observations

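Of the sources of superoxide or hydrogen peroxide outside the peroxisome, only NADPH oxidases with their partner proteins and xanthine dehydrogenase were listed. Their median change was -0.08. Of 9 measured genes of NADPH oxidases and xanthine dehydrogenase, 1 passed the limma threshold, Nox4, which releases hydrogen peroxide directly. Its signal was 5.11 ± 0.29 after withdrawal and 7.43 ± 0.14 on continuous NTBC (SD, n = 3 each), 4.99-fold lower (adjusted p = 4.53e-05). The phagocyte subunits Cybb and Cyba had changes of 0.10 and -0.22, and Xdh, which can release superoxide in its oxidase form, one of 0.32. None of these 3 passed, and they were named after their values were seen.

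Genes that build peroxisomes, the organelle of catalase, had a median change of -0.05 over 14 measured, with 2 past the threshold, each higher. Changes ran from -0.54 to 1.05, and 4 were higher and 5 lower at an unadjusted p under 0.05. Pex11a, which drives peroxisome division, rose by 1.05 (SE 0.16, limma adjusted p = 0.00275) and Pex13, part of the import pore for matrix proteins such as catalase, by 0.70 (SE 0.16, adjusted p = 0.0216). Abcd3, an abundant peroxisomal membrane transporter, had a change of -0.51 (adjusted p = 0.0536) and was named after its value was seen.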
